A study of Homo sapiens with 3 samples.

Results

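The zinc finger genes of human chromosome 19 were examined for peaks of the AP-1 subunits Fra-1 and Fra-2. The cells were MDA-MB-231, a triple-negative breast cancer line of the basal B type. The genes were taken by name and position alone, as protein-coding genes of chromosome 19 in GENCODE (GRCh37) whose symbol is ZNF followed by digits, which gave 240 of 19756 protein-coding genes outside chromosome Y. Chromatin immunoprecipitation followed by sequencing (ChIP-seq) was done with an antibody to Fra-1, with an antibody to Fra-2, and for input DNA as the control, which is not analysed here. All came from this line, grown in medium with 10% fetal calf serum, and the labels name no genetic change and no drug. The labels mention 2 independent replicates of each, but 1 peak list per antibody was analysed, so no value has a spread between replicates and no difference between the lists or between gene groups could be tested against one. The lists hold positions without heights, the depth behind them is unknown, and they carry no expression with which to check the cell type. The Fra-1 list had 257 peaks and the Fra-2 list 407 peaks on chromosome 19, of 9998 and 13003 in all.

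Most ZNF genes encode proteins with a row of zinc fingers, each of which reads a few bases of DNA. In many of them a KRAB domain at the start of the protein recruits the corepressor TRIM28 and, through it, the histone methyltransferase SETDB1, which lays down heterochromatin, mainly over transposable elements. Chromosome 19 carries large tandem clusters of such genes, which arose by repeated duplication, and the bodies of many ZNF genes are themselves packed in heterochromatin in human cells. Fra-1 and Fra-2 belong to the Fos family and pair with Jun proteins to form AP-1, which recognises the element TGACTCA or TGAGTCA.

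A peak was counted as in reach of a gene when it overlapped the gene body or had its centre within 100 kb of a TSS, the transcription start site of a coding transcript. Of the 240 ZNF genes, 67 (27.9%) had a Fra-1 peak in reach and 77 (32.1%) a Fra-2 peak. Over all protein-coding genes the shares were 44.0% for Fra-1 and 57.1% for Fra-2. Fewer peaks than genes lay behind these counts, because neighbouring genes share peaks: 45 distinct Fra-1 peaks and 70 distinct Fra-2 peaks made 102 and 156 pairs of gene and peak.

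AP-1 elements in peaks over exons are shown first, those of ZNF227 and ZNF274 at a start site, since peaks there were few. All sequences shown were chosen after the values were seen. Each is the element with 10 bases on either side, on the plus strand of GRCh37 from 5′ to 3′, with the element in capitals. The peaks of ZNF227 and ZNF274 were in the Fra-2 list alone. The peak of ZNF490, in the Fra-1 list alone, lay over its 3′ UTR, away from a start site.
ZNF227, chr19:44716730-44716756: gtccgggaggTGAGTCAgccctgcacc
ZNF274, chr19:58695140-58695166: gggagtcctaTGACTCActctgggcgt
ZNF490, chr19:12691147-12691173: cattgccgcaTGAGTCAcgtcttcaaa

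Whole peaks inside or beside the genes are shown for those away from exons. The peaks in introns of ZNF611, ZNF627 and ZNF665 were in both lists, those of ZNF701 and ZNF536 in the Fra-2 list alone. Each sequence is the peak as called, up to the base before its end in the file.
ZNF611, chr19:53225751-53225850: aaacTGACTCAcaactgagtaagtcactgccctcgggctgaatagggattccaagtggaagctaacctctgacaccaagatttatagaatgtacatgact
ZNF627, chr19:11679101-11679250: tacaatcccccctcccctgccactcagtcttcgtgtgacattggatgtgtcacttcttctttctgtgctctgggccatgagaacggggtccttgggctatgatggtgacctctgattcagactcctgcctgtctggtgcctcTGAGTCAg
ZNF665, chr19:53686501-53686650: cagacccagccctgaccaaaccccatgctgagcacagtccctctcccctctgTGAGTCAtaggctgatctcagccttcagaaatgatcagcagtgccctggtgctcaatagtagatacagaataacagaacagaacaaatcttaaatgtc
ZNF701, chr19:53070001-53070150: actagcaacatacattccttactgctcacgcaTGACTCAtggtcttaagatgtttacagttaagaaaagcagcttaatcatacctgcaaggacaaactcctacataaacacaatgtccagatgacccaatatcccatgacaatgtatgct
ZNF536, chr19:30884051-30884200: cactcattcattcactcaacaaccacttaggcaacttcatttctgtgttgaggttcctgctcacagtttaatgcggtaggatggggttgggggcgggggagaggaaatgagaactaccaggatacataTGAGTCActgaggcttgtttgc
ZNF536, chr19:31173901-31174100: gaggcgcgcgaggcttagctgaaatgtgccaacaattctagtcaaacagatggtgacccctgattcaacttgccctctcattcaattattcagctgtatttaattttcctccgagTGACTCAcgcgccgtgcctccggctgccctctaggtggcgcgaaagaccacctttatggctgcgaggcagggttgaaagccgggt

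Set beside other genes, the ZNF genes of chromosome 19 had the lowest shares of the groups compared. The 95% exact binomial (Clopper-Pearson) interval was 22.3 to 34.1% for Fra-1 and 26.2 to 38.4% for Fra-2. Among the other 1196 protein-coding genes of chromosome 19, 52.6% (49.7 to 55.5) had a Fra-1 peak in reach and 67.5% (64.7 to 70.1) a Fra-2 peak. Among 236 ZNF genes of other chromosomes, chosen by the same naming rule, 34.7% (28.7 to 41.2) had a Fra-1 peak and 48.7% (42.2 to 55.3) a Fra-2 peak. These intervals cover counting error only and treat genes as independent, which neighbours that share a peak are not.

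**Figure D1:**
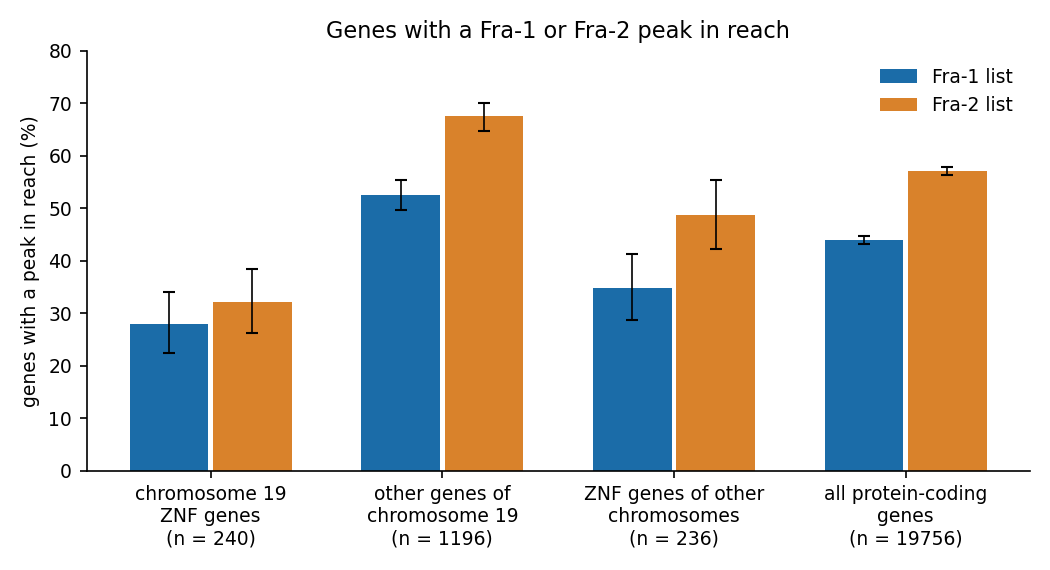
Percentage of genes with a peak in reach (vertical axis) in 4 groups of genes, with Fra-1 bars left of Fra-2 bars and 95% exact binomial intervals. Chromosome 19 ZNF genes stood at 27.9% and 32.1%, against 44.0% and 57.1% of all protein-coding genes.

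In all, 154 of the 240 genes (64.2%) had no peak of either list in reach. The share was 40.2% of all protein-coding genes, 30.7% of the other genes of chromosome 19 and 49.2% of ZNF genes of other chromosomes. Both lists had a peak near 58 genes (24.2%), the Fra-1 list alone near 9 and the Fra-2 list alone near 19. Of all 19756 protein-coding genes, 8149 (41.2%) had peaks of both lists, 535 of the Fra-1 list alone and 3125 of the Fra-2 list alone. Genes with a peak in reach mostly had 1 or 2 of a list. Fra-1 peaks numbered 1 for 43 genes, 2 for 17 and at most 5, and Fra-2 peaks numbered 1 for 38 genes, 2 for 19 and at most 6. With genes without peaks included, the median gene had 0 peaks of either list. The median over all protein-coding genes was 0 Fra-1 peaks and 1 Fra-2 peak. For the 240 genes the median distance from a TSS was 290 kb to the nearest Fra-1 peak and 206 kb to the nearest Fra-2 peak. The other genes of chromosome 19 had medians of 91.5 and 49.5 kb.

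At the limit of reach, ZNF404 lay just inside for both lists, with peaks 99.4 kb (Fra-1) and 99.3 kb (Fra-2) from its start. Just outside lay ZNF439 for Fra-1, at 117 kb, and ZNF69 for Fra-2, at 100.8 kb. The farthest was ZNF446, with 2925 kb to the nearest Fra-1 peak, and for Fra-2 ZNF100, with 2190 kb.

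Peaks on the genes themselves were rarer still. Fra-1 peaks overlapped the bodies of 9 of the 240 genes (3.75%, 1.73 to 7.0) and Fra-2 peaks those of 13 (5.42%, 2.92 to 9.08). The shares were 12.7% and 17.7% of all protein-coding genes and 7.69% and 13.7% of the other genes of chromosome 19. Among ZNF genes of other chromosomes they were 6.36% and 10.6%, of which the Fra-1 value lay inside the interval. With 10 kb around the start sites added, 11 genes (4.58%) had a Fra-1 peak and 16 (6.67%) a Fra-2 peak. The shares were 16.0% and 22.8% of all protein-coding genes and 8.47% and 17.4% of ZNF genes of other chromosomes. Gene bodies had a median length of 25.5 kb, from 3.12 kb to 489 kb for ZNF536. Gene lengths in the other groups were not compared. No peak of either list touched the longest coding exon of any of the 240 genes, which usually encodes the zinc fingers. These exons covered only 374 kb in total, and the longest coding exons of the other genes of the chromosome, 643 kb in total, were touched by 0 Fra-1 and 3 Fra-2 peaks.

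Peaks lay at the start sites of 6 genes. Within 1 kb of a TSS lay Fra-1 peaks at 2 of 240 genes (0.833%, 0.101 to 2.98) and Fra-2 peaks at 5 (2.08%, 0.680 to 4.79). All protein-coding genes had 1.84% and 3.61%, both inside these intervals. ZNF genes of other chromosomes had 0.424% and 2.97%. ZNF792 was the only gene with both. The Fra-1 peak there (chr19:35451351-35451601) and the Fra-2 peak (chr19:35451401-35451601) covered an exon 0.131 and 0.106 kb from the start and had no AP-1 element within 100 bp of their centres. ZNF562 had a Fra-1 peak of 250 bp in an intron, 0.798 kb from its start, and no Fra-2 peak nearer than 53.7 kb.

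The other start sites were in the Fra-2 list alone. ZNF227 had a 300 bp peak with its centre 0.023 kb from a TSS, over the 5′ UTR, and its nearest Fra-1 peak was 243 kb away. ZNF235 had a 100 bp peak 0.020 kb from its start, over a coding exon, with the nearest Fra-1 peak 150 kb away. ZNF274 encodes a KRAB and SCAN domain protein known for bringing SETDB1 to the ends of other ZNF genes. It had a 200 bp peak 0.187 kb from a TSS, over the 5′ UTR, and its nearest Fra-1 peak was 2634 kb away. ZNF561 had a 100 bp peak 0.091 kb upstream of its start. That peak held no AP-1 element but a cyclic AMP response element, TGACGTCA, to which AP-1 and related dimers can also bind.

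Inside the genes, away from start sites, peaks lay in introns of both small and large members. Shared intronic peaks were found in ZNF611 (6.24 kb from the start, 100 bp in both lists), ZNF665 (10.0 and 10.1 kb for Fra-1 and Fra-2), ZNF627 (8.91 kb) and ZNF507. ZNF665 had a second Fra-2 peak, 10.9 kb from its start. In ZNF507 the shared peak was 350 bp wide in both lists, 28.3 kb (Fra-1) and 28.2 kb (Fra-2) from the start, and a further Fra-1 peak of 100 bp lay 27.6 kb from the start. None of the 3 had an AP-1 element within 100 bp of its centre.

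Intronic peaks in 1 list came next. ZNF536, a repressor of neuronal differentiation and the longest gene of the group, had 2 Fra-2 peaks, 20.8 and 311 kb from a start, and no Fra-1 peak within 842 kb. Other Fra-2 peaks lay in introns of ZNF653, ZNF114 and ZNF701. Near a start of ZNF763, 5.91 kb downstream, lay a Fra-1 peak of 100 bp outside the gene bodies of the group. ZNF331, an imprinted gene, had a Fra-1 peak of 100 bp, 6.71 kb from a start, which held no AP-1 element, and its nearest Fra-2 peak was 287 kb away.

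Most peaks in reach were closer to a start site of some other gene. The nearest TSS belonged to a ZNF gene of the group for 17 of 45 peaks (Fra-1) and 23 of 70 (Fra-2). Thus 13 and 18 of the 240 genes were the nearest gene to a peak. These gene counts were not set beside those of other gene groups, so whether they are low was not tested. The other 28 Fra-1 and 47 Fra-2 peaks lay nearest to 23 and 34 genes. Among them were POU2F2, a lymphoid transcription factor gene, with 3 Fra-1 and 5 Fra-2 peaks, KCNN4, a potassium channel gene, with 2 of each, and ECSIT, a gene of innate immune signalling and mitochondrial assembly, also with 2 of each. The distance from a peak to the nearest ZNF start had a median of 31.4 kb for Fra-1 and 31.9 kb for Fra-2.

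**Figure D2:**
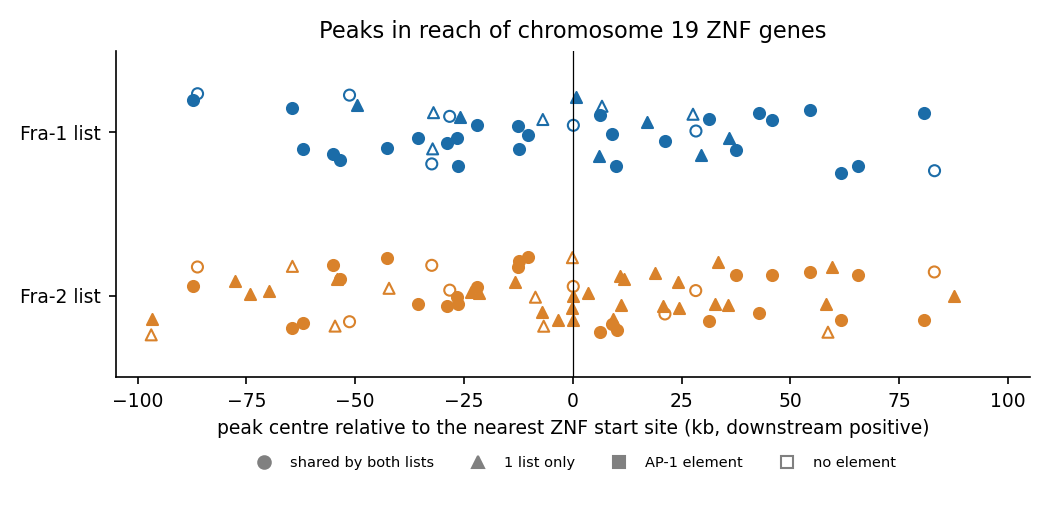
Distance from the nearest ZNF start site to the centre of each peak in reach within 100 kb (horizontal axis, kb, downstream positive), for the Fra-1 list above and the Fra-2 list below; vertical scatter within a row has no meaning. Circles are shared peaks, triangles peaks of 1 list, and filled symbols hold an AP-1 element. Peaks spread over the whole range, and 2 of the Fra-1 list and 5 of the Fra-2 list stood within 1 kb.

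For several of the genes with the most peaks, many peaks in reach lay nearer a start site of another gene. Which gene a peak acts on was not tested. ZNF114 had 3 Fra-1 and 6 Fra-2 peaks in reach, the most for Fra-2. Of these, 2 Fra-2 peaks had the ZNF114 start as their nearest, 3.396 and 18.8 kb downstream, the first in an intron and neither in the Fra-1 list. The widest Fra-1 peak, 300 bp with 3 AP-1 elements, was 54.5 kb downstream and lay 0.536 kb from the start of EMP3, which encodes a membrane glycoprotein. Near ZNF526 there were 4 Fra-1 and 5 Fra-2 peaks and near ZNF574 there were 3 and 4, and none of these had a ZNF start as its nearest. All 6 Fra-1 peaks around this pair were shared with the Fra-2 list.

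ZNF653 and ZNF627 lie on either side of the same stretch, where 3 Fra-1 and 5 Fra-2 peaks were in reach of both. A pair of neighbouring shared sites, chr19:11642901-11643151 and chr19:11643551-11643801 by their Fra-1 peaks, lay less than 4 kb upstream of ECSIT. Each held an AP-1 element. In the second site 45.9% of 31-base words recurred elsewhere on chromosome 19. In reach of ZNF628 and ZNF579 were the same 2 Fra-1 and 5 Fra-2 peaks, and SBK3 was the nearest gene to both Fra-1 peaks and to 4 of the Fra-2 peaks. ZNF283 had 2 Fra-1 and 4 Fra-2 peaks, of which the shared ones were nearest to KCNN4 and the other two to SMG9.

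Peaks near the centromere stand apart. A run of unknown bases from 24631783 to 27731782 marks the centromere in GRCh37, and 5 Fra-1 and 3 Fra-2 peaks in reach lay within 1 Mb of it. All were near ZNF254, with 5 Fra-1 and 3 Fra-2 peaks, and ZNF726, with 4 and 2, and these genes had no other peaks. In the Fra-1 list 3 peaks of 100 bp, starting at 24183751, 24183951 and 24184151, followed each other at 200 bp, 32.4 to 32.0 kb upstream of ZNF254. The first alone was in the Fra-2 list, and none held an AP-1 element. The widest peak of all those in reach, 450 bp in the Fra-2 list from 24237151 to 24237601, lay in an intron of ZNF254. It held 2 AP-1 elements, neither within 100 bp of its centre, and overlapped a Fra-1 peak of 200 bp that had one. Without the peaks near this gap 65 genes had a Fra-1 peak and 75 a Fra-2 peak. Whether these peaks reflect repeated sequence missing from the assembly was not tested.

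Genes without peaks were grouped along the chromosome. Members whose bodies lay within 200 kb of each other were chained into clusters, which gave 28 clusters. The long cluster from ZNF737 to ZNF254 (chr19:20718631-24312770) held 29 genes over 3.59 Mb, and its only peaks were those near the centromere, in reach of 2 genes. In the cluster from ZNF565 to ZNF573 (chr19:36673178-38307940) 2 of 24 genes had a peak in reach, through 1 site shared by both lists. It lay 80.7 kb from ZNF565 and 7.28 kb from CAPNS1, which encodes a calpain subunit. In the cluster from ZNF264 to ZNF446 (chr19:57702868-58992597) 0 of 41 genes had a Fra-1 peak and 4 a Fra-2 peak, all through the peak at the start of ZNF274. The 7 genes from ZNF582 to ZNF835 had no peak of either list.

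Other clusters had more. All 7 genes from ZNF628 to ZNF581 had peaks of both lists in reach, from 2 Fra-1 and 5 Fra-2 peaks. In the cluster from ZNF653 to ZNF791, 12 of 25 genes had a Fra-1 peak and 9 a Fra-2 peak, and in that from ZNF577 to ZNF331 it was 15 of 38 for each list, with 4 Fra-1 and 5 Fra-2 peaks. From ZNF283 to ZNF180 there were 6 of 20 genes for Fra-1 and 12 for Fra-2, with 4 and 9 peaks. This cluster holds the Fra-2 peaks at the starts of ZNF227 and ZNF235. Next to it, a Fra-1 peak over the body of PLAUR, the urokinase receptor gene, was in reach of ZNF576 and ZNF428. It lay 0.804 kb upstream of the nearest PLAUR start site and was not in the Fra-2 list.

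**Figure D3:**
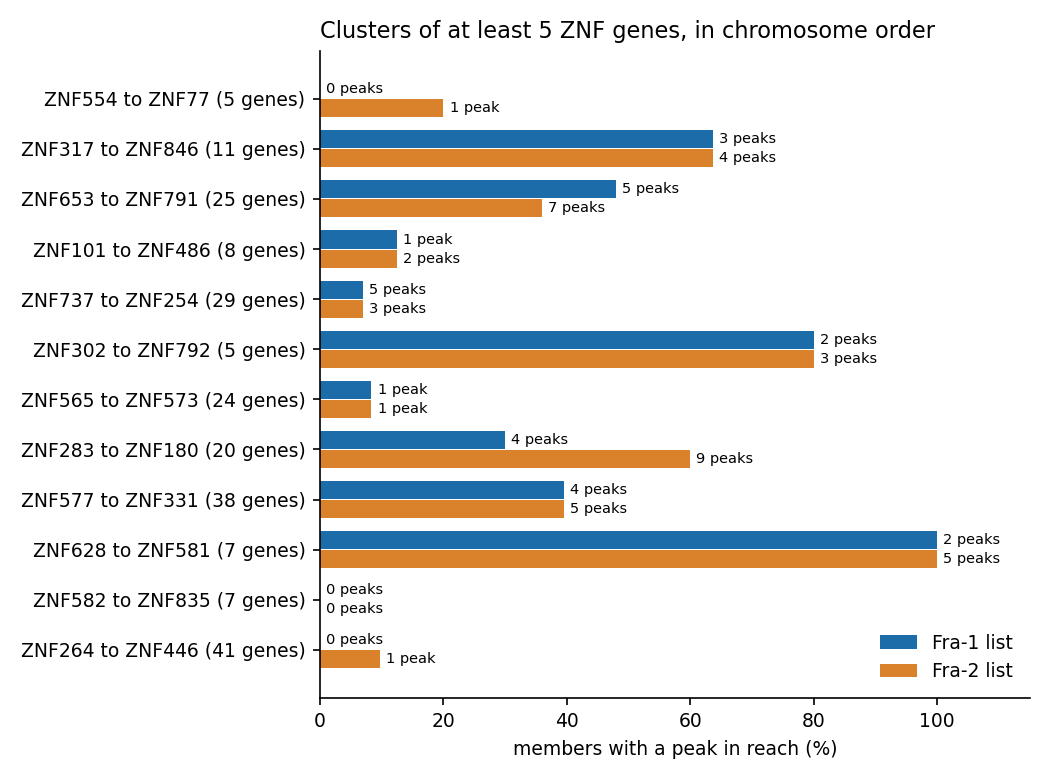
Percentage of genes with a peak in reach (horizontal axis) in the 12 clusters of at least 5 ZNF genes, from the start of the chromosome at the top to its end at the bottom, with Fra-1 bars above Fra-2 bars and the number of distinct peaks beside each bar. The share was 0% for both lists from ZNF582 to ZNF835 and 100% for both from ZNF628 to ZNF581. The 7 genes of the latter had 2 Fra-1 and 5 Fra-2 peaks in reach in all.

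Groups of these genes chosen by their role were read beside the 44.0% (Fra-1) and 57.1% (Fra-2) of all protein-coding genes with a peak in reach, and the 27.9% and 32.1% of the 240 ZNF genes. The list of ZNF genes whose proteins bind retroelements had a Fra-1 peak near 1 of 6 and a Fra-2 peak near 2 of 6. ZNF91, which represses SVA elements, and ZNF93, which represses LINE elements, had their nearest peaks of either list at 562 and 286 kb. ZNF649 and ZNF765 had no peak in reach. ZNF611, which also binds SVA elements, had the shared intronic peak, and ZNF808, which silences MER elements in the developing pancreas, a Fra-2 peak at 30.8 kb. Of 8 genes whose promoters are known to be methylated in cancers, 1 had a Fra-1 peak and 0 a Fra-2 peak, against the same shares. ZNF331 had the Fra-1 peak described and ZNF154, ZNF582, ZNF671, ZNF132, ZNF382, ZNF569 and ZNF577 had no peak of either list in reach.

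The third group held SCAN domain and other unusual members. Here 1 of 6 genes had a Fra-1 peak, ZNF507, against 44.0% of all protein-coding genes and 27.9% of the ZNF genes. A Fra-2 peak was near 5 of 6, beside the 57.1% of all protein-coding genes and the 32.1% of the ZNF genes. With 6 genes and no interval, whether these shares differ was not tested. ZNF473, which acts in the processing of histone messenger RNA, had 2 Fra-2 peaks, 21.6 and 96.9 kb upstream. Their nearest start sites were those of VRK3 and ATF5. ZNF444 had a Fra-2 peak at 24.4 kb, nearest to the start of GALP, and ZNF446 had none. The medians were 0 Fra-1 peaks and 1 Fra-2 peak in this group and 0 for both lists in the other 2.

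The partners through which KRAB proteins silence chromatin were looked up in the same way. Of 19 corepressor and heterochromatin genes, 5 had a Fra-1 peak in reach and 8 a Fra-2 peak, with medians of 0 for both, against 44.0% and 57.1% of all protein-coding genes. TRIM28, at the end of chromosome 19, had its nearest Fra-1 peak at 2995 kb and its nearest Fra-2 peak at 360 kb. SETDB1 had a Fra-2 peak at 50.9 kb and none for Fra-1. UHRF1, which guides maintenance methylation and also lies on chromosome 19, had the most, with 5 Fra-1 and 6 Fra-2 peaks, the nearest 1.74 kb (Fra-1) and 1.71 kb (Fra-2) from a start. DNMT1, the maintenance methyltransferase gene, had 0 Fra-1 peaks and 1 Fra-2 peak, and DNMT3B, a de novo methyltransferase gene, had 2 of each.

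The 2 lists met at many of the sites. Merged by overlap, the peaks in reach made 82 sites, of which 33 were in both lists, 12 in the Fra-1 list alone and 37 in the Fra-2 list alone. Overlap by 1 bp or more was thus found for 73.3% of the Fra-1 peaks (58.1 to 85.4) and for 47.1% of the Fra-2 peaks (35.1 to 59.4). All other nuclear peaks gave 80.4% for Fra-1 and 61.7% for Fra-2, and the other peaks of chromosome 19 gave 87.3% and 54.6%. The centres of shared peaks were at most 75 bp apart, with a median of 25 bp, and 9 pairs had the same start and end. The Fra-1 peak was wider in 7 pairs, the Fra-2 peak in 15, and 11 had equal widths. The median peak in reach was 150 bp wide in the Fra-1 list, against 200 bp in the Fra-2 list.

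The AP-1 element, TGACTCA or TGAGTCA, was in most of these peaks. As each form is the reverse complement of the other, both strands were read at once. Within 100 bp of the centre, at least 1 copy was found in 33 of 45 peaks for Fra-1 (73.3%, 58.1 to 85.4) and in 54 of 70 for Fra-2 (77.1%, 65.6 to 86.3). Consecutive windows of the same length held it in 3.19% within reach of the ZNF genes and in 3.09% on the rest of chromosome 19. All other nuclear peaks held it in 56.7% for Fra-1 and 67.4% for Fra-2, or 64.6% and 74.7% away from large gaps. In the sites of both lists 26 of 33 held it, in those of the Fra-1 list alone 7 of 12, and in those of the Fra-2 list alone 29 of 37. Peaks with a ZNF start as their nearest held it in 9 of 17 Fra-1 cases and 16 of 23 Fra-2 cases, and those nearer another gene in 24 of 28 and 38 of 47.

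The TEAD site, GGAATGC or GGAATGT on either strand, which can share an end base with the AP-1 element, was in 3 Fra-1 peaks (6.67%, 1.40 to 18.3) and 3 Fra-2 peaks (4.29%, 0.893 to 12.0). All other nuclear peaks held it in 15.9% and 13.2%, or 13.8% and 11.4% away from large gaps. The other peaks of chromosome 19 held it in 12.7% and 8.61%. Of these shares of peaks, only the 13.2% for Fra-2 lay outside the interval for the peaks in reach. Windows in reach of the ZNF genes held it in 5.27%. The peaks were near ZNF490, ZNF101 and ZNF541 for Fra-1 and ZNF358, ZNF101 and ZNF701 for Fra-2. The cyclic AMP response element was in 0 Fra-1 and 2 Fra-2 peaks, the one at ZNF561 and another 23.3 kb upstream of ZNF627. Matches are descriptions of sequence and do not show which factor was bound.

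Peaks per Mb were fewer within reach of ZNF genes than within reach of other genes of chromosome 19 only. Away from the large gap, the stretches in reach of a ZNF gene covered 17.5 Mb and held 2.29 Fra-1 peaks per Mb (exact Poisson 95% interval for counting error 1.64 to 3.12) and 3.83 Fra-2 peaks per Mb (2.97 to 4.87). Those in reach of other genes of chromosome 19 only, 33.7 Mb, held 5.17 (4.43 to 6.0) and 8.80 (7.82 to 9.86). With the region around the gap kept, the stretches in reach of a ZNF gene held 2.47 (1.81 to 3.31) and 3.85 (3.00 to 4.86) peaks per Mb. All nuclear chromosomes, gap regions included, held 3.49 and 4.55, of which the Fra-2 value lay inside the interval. In the 6.34 Mb within reach of ZNF genes but of no other protein-coding gene, 3 Fra-1 and 7 Fra-2 peaks were left, or 0.473 (0.0976 to 1.38) and 1.10 (0.444 to 2.27) per Mb. With the region around the gap kept, there were 8 Fra-1 and 10 Fra-2 peaks, or 1.17 (0.505 to 2.30) and 1.46 (0.701 to 2.69) per Mb. Away from the gap, the 3 Fra-1 peaks were nearest to ZNF121, ZNF562 and ZNF599. The 7 Fra-2 peaks there were nearest to ZNF121, ZNF561, ZNF536, ZNF599, ZNF227 and ZNF701.

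AP-1 elements were counted in the same stretches. There were 174 per Mb in reach of ZNF genes only, 167 per Mb in reach of any ZNF gene and 164 per Mb in reach of other genes only. For every 1000 elements, 2.72 Fra-1 peaks and 5.43 Fra-2 peaks with an element lay in stretches in reach of ZNF genes only. Stretches in reach of any ZNF gene had 10.6 and 18.2, and those in reach of other genes only had 21.6 and 41.6. With the region around the gap kept, the values in reach of ZNF genes only were 4.15 and 5.80. The GC content was 42.3% in reach of ZNF genes only, 45.2% in reach of any ZNF gene and 50.9% in reach of other genes only. Repeated sequence was measured as the share of 31-base words that occur again on chromosome 19. It was 17.2% within reach of the ZNF genes and 15.9% on the rest of the chromosome, 15.5% in coding exons of ZNF genes and 4.03% in those of other genes. In the peaks in reach it was 4.94% for Fra-1 and 4.92% for Fra-2, and 5.75% and 4.91% in the other peaks of the chromosome. The part of GC content and of repeated sequence in the low density was not tested.

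**Figure D4:**
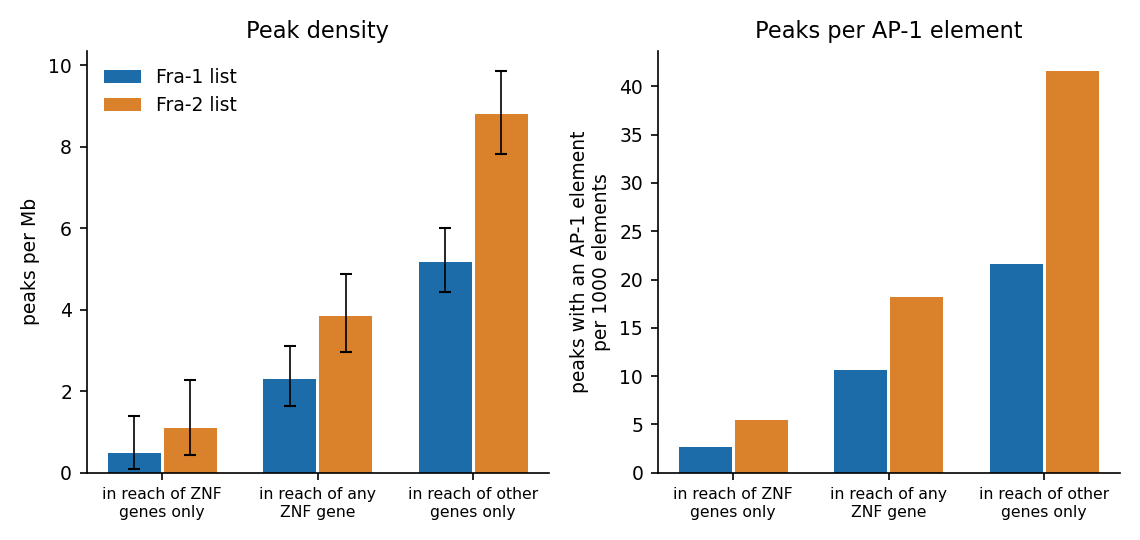
Peaks per Mb with exact Poisson 95% intervals (left) and peaks with an AP-1 element per 1000 AP-1 elements (right) in stretches of chromosome 19 within reach of ZNF genes only, of any ZNF gene, or of other genes only, away from the large gap, with Fra-1 bars left of Fra-2 bars. Density stood at 0.473 and 1.10 peaks per Mb in reach of ZNF genes only, against 5.17 and 8.80 in reach of other genes only. With the region around the gap kept, which is not drawn, the ZNF values were 1.17 and 1.46.

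Promoter sequence itself was also searched for the element. RefSeq promoters of GRCh38.p14, from 250 bases before to 50 after the start, were matched by symbol for 210 of the 240 genes. Of these, 5 (2.38%) held TGACTCA or TGAGTCA, namely ZNF222, ZNF235, ZNF260, ZNF534 and ZNF576, against 4.92% of all 27305 promoters. No interval was computed for this share, and whether the shares differ was not tested. ZNF235 was the only one of the 5 with a peak at its start. ZNF227 and ZNF274 were not among the 5, although the elements printed above for them lie close to GENCODE start sites. The matched promoters may thus belong to other start sites, and the count does not cover every start site of a gene.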

How the data were processed

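Fra-1 and Fra-2 ChIP-seq of MDA-MB-231 cells was analysed from 1 deposited peak list per antibody. The submitters' processing notes name Bowtie2 and hg19, with no version or role. Which program called the peaks, at what threshold, whether input was subtracted and how replicates were joined is not given in the sources used here. Each deposited file lists other values, namely start and end positions of peaks on a grid of 50 bp, with no count or score. Starts were taken as 1-based and are printed unchanged. The names the authors gave the files mention unireads; how reads with several matches were treated is not stated. All nuclear peaks ended within the GRCh37 chromosomes, so that assembly and GENCODE 44 lifted to it were used.

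The genes, gene lists and settings were chosen with earlier results of these data known. Genes were named by fixed rules: the 10 with most peaks, the 10 with the nearest peak, the 10 with the widest peak nearest to them, those with a peak within 1 kb of a start or over an exon, and the lists. Some peak sequences are not reported here. Printed sequences, TEAD and cyclic AMP elements, repeated words and stretches in reach of ZNF genes only were chosen after values were seen. With no replicates, shares and densities carry exact binomial or Poisson intervals and no test was made. The assignment of peaks to genes was tested on simulated data. Alternatives were peaks of at least 200 bp, peaks away from large gaps, 10 kb, gene bodies, the gene's 5′ end alone, symbols with a letter after the digits, other overlaps (reciprocal 50%, centres within 500 bp) and motif windows, and a shortened Fra-2 list. Computations used pysam 0.24.0, scipy 1.17.1, pandas 2.3.3, numpy 2.4.6 and matplotlib 3.10.9 under Python 3.11.15.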

Additional observations from a re-analysis of the deposited data

How the results depend on the processing

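Of 63 values recomputed under alternatives, 46 stayed within 1.5 times the reported count or within the interval of the reported share, and 17 moved. Among peaks at least 200 bp wide, 17 Fra-1 and 39 Fra-2 peaks were in reach, and 20 genes had a Fra-1 peak. Of these Fra-1 peaks 88.2% overlapped a Fra-2 peak, and 6 and 9 genes were the nearest gene to a Fra-1 and a Fra-2 peak. These gene counts were not set beside those of all protein-coding genes. Within 10 kb or the gene body, 11 and 16 genes had peaks, from 12 Fra-1 and 19 Fra-2 peaks, of which 50% and 31.6% were shared. Over gene bodies alone, 9 and 13 genes had peaks, from 10 Fra-1 and 15 Fra-2 peaks; fewer peaks qualify by construction in these settings. With the motif window cut to 50 bp from the centre, 57.8% of Fra-1 peaks in reach held the AP-1 element. Leaving out peaks near the large gap, using the 5′ end of each gene, adding symbols with a letter, other overlaps and a Fra-2 list shortened to the length of the Fra-1 list moved none of the values recomputed for them past these limits. Densities were not among them: in reach of ZNF genes only, the density per Mb was 0.473 for Fra-1 and 1.10 for Fra-2 without the region around the large gap, and 1.17 and 1.46 with it. No paired analysis was possible because 1 list per antibody was analysed and no replicate numbers are shared. Without depth or heights, peaks missed for lack of reads cannot be told apart from unbound sites.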
